A study of Mus musculus with 10 samples.

Results

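The EGR transcription factors and the NAB corepressors were followed through depolarization of mouse cortical cultures. Members were all transcripts in the count files that the annotation assigns to Egr1, Egr2, Egr3, Egr4, Nab1 or Nab2. The rule found 6 transcripts of 3 genes among 22534 transcripts, namely Egr2-201, Egr2-202 and Egr2-203, Nab1-201, and Nab2-201 and Nab2-202. Egr1, Egr3 and Egr4 were not analysed here. Primary mixed neuron-glia cultures were prepared from the cortex of newborn FVB mice of both sexes and kept for 7 days, with the same strain in both groups. Cultures 1, 2 and 3 were left untreated, and cultures 4 and 5 received 55 mM KCl for 3 h, and all were exposed to 100 ug/ml cycloheximide for 7 min before lysis. Part of each lysate gave an RNAseq library, which measures transcript abundance, and the rest gave a ribosome footprinting (RF) library, which measures ribosomal occupancy. The sources used here do not say whether the cultures came from separate litters, so p-values measure the spread between these cultures.

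EGR proteins are zinc finger transcription factors of the immediate early class, whose genes are switched on within minutes to hours of growth factor signals or neuronal activity through serum response factor, CREB and MEF2 sites. NAB1 and NAB2 bind some EGR proteins directly, EGR2 among them, and can turn these from activators into repressors. They do so in part by recruiting the CHD4-containing NuRD complex. NAB genes can themselves be EGR targets, which closes a feedback loop. EGR2, also called Krox20, is best known for hindbrain patterning and for Schwann cell myelination, and it is also induced by activity in cortical neurons.

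All coordinates are of GRCm38. Egr2 lies on the plus strand of chromosome 10, with Egr2-201 from 67537869 to 67542188 in 2 exons. Its transcripts share the last exon and differ at the 5′ end, and their coding sequences (CDS) are 1410, 1260 and 1236 nt long for Egr2-201, Egr2-202 and Egr2-203. Nab1-201 lies on the minus strand of chromosome 1 from 52457294 to 52500679 in 8 exons, with a CDS of 1458 nt. Nab2-201 lies on the minus strand of chromosome 10 from 127660918 to 127666710 in 7 exons, with a CDS of 1575 nt, and Nab2-202 has 6 exons and a CDS of 1383 nt. The difference between both Nab2 transcripts within the CDS is exon 6 of Nab2-201, at chr10:127662731-127662922, which is 192 nt long and makes up 12.2% of the CDS. Its length equals 64 codons with no remainder, so leaving it out keeps the reading frame, although exon 6 begins within a codon. The net of reads on it and reads on the junction that leaves it out separated the treated from the untreated cultures, so the exon and the junctions that distinguish the transcripts are shown 5′ to 3′, with exon 6 in capitals in the junction sequences.
Nab2 exon 6, whole: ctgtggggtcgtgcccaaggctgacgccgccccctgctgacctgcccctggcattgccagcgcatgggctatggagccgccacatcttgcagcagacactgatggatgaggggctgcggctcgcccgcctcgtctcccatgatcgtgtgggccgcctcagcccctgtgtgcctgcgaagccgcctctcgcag
Nab2-201, exon 5 into exon 6: atggccacttgcaggCTGTGGGGTCGTGCC
Nab2-201, exon 6 into exon 7: AGCCGCCTCTCGCAGagttcgaggaggggt
Nab2-202, exon 6 left out: atggccacttgcaggagttcgaggaggggt

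The start codons of the Egr2 transcripts show how their reading frames differ at the 5′ end, where Egr2-201 begins upstream of the other two. Each line gives 12 bases before the start codon, the start codon in capitals and the 9 bases after it.
Egr2-201: tgcgaggagcaaATGatgaccgcc
Egr2-202: ccctttgaccagATGaacggagtg
Egr2-203: gaacaggatggcATGatcaacatt

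RefSeq promoter sequences of GRCm38.p6, from 250 bases before to 50 after each annotated start, were matched for all 3 genes, with 5 starts for Egr2 and 1 each for Nab1 and Nab2. Both strands were searched for the CArG box of serum response factor, the CRE core TGACGT, the EGR site GCGNGGGCG and the GC box GGGCGG, which overlaps many EGR sites. A CArG box stood in 1.63% of 32851 promoters, a CRE core in 7.51%, an EGR site in 5.55% and a GC box in 35.7%. The Egr2 promoter whose start is next to that of the measured transcripts had a CArG box 73 bases before the start and a CRE core on the opposite strand 57 bases before it, both in capitals at chr10:67537794-67537823.
Egr2 promoter, plus strand: agtCCATATATGGgcagcgACGTCAcgggt
The Nab1 promoter window held 3 EGR site matches and the Nab2 promoter none. The RefSeq start of Nab1 lies within the first exon of Nab1-201 (52500210 to 52500679), and so do the 3 matches, which are downstream of the start of the measured transcript. The match 109 bases before the RefSeq start is in capitals here, at chr1:52500538-52500567. These letters are matches and not sites of measured binding.
Nab1 promoter, minus strand: actcggccgcGCGTGGGCGggagccggagc

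Library depth was 3056286 to 3629959 reads for RNAseq and 1463654 to 7719915 reads for RF, with the lowest RF depths in untreated culture 3 and KCl culture 4. Of 18284 transcripts with enough reads for testing, 22.0% passed an adjusted p of 0.05 in RNAseq (11.9% higher and 10.1% lower in KCl), 29.5% in RF (15.6% higher and 13.9% lower) and 2.36% in translational efficiency (TE, the ratio of RF to RNAseq). Library totals in place of TMM normalization shifted the median log2 fold change from -0.02 to -0.16 in RNAseq and from -0.02 to -0.20 in RF. Under that scaling rises and falls were 8.25% and 15.6% of transcripts in RNAseq, and 9.66% and 22.1% in RF. Markers of neurons, astrocytes, microglia and the oligodendrocyte lineage were present in all RNAseq libraries, while the summed level of 4 endothelial markers was at most 6.01 normalized CPM (counts scaled to the TMM library size). All 6 member transcripts had enough reads to be tested.

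KCl stimulation raised Egr2 in both transcript abundance and ribosomal occupancy, by 7.53-fold and 6.45-fold for Egr2-201. No Nab transcript passed the test in either assay. All 3 Egr2 transcripts rose in RNAseq and in RF, and 0 of the 3 Nab transcripts were called in either assay by edgeR or DESeq2. DESeq2 gave no adjusted p for Nab1-201 in RF, so it decided nothing there. At an unadjusted p under 0.05, edgeR also gave 0 Nab transcripts. No member passed the TE test. The 3 Egr2 transcripts share most of their reads and count as 1 observation.

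Egr2-201 had 16, 24 and 32 RNAseq reads in untreated cultures 1, 2 and 3 and 185 and 169 in KCl cultures 4 and 5. Scaled for length and depth, these were 1.56, 2.43 and 3.42 RPKM without and 20.4 and 16.8 RPKM with KCl. Both KCl cultures lay above all untreated cultures, which by any margin was so in 23.6% of all transcripts tested. Abundance averaged 2.47 ± 0.929 RPKM (SD, n = 3) without and 18.6 ± 2.56 RPKM (SD, n = 2) with KCl. The rise was 7.53-fold, or 2.91 on the log2 scale (standard error 0.25, edgeR adjusted p = 1.45e-17). With 1 leading transcript per gene, Egr2-201 had the 22nd largest rise in RNAseq among 10675 genes.

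Footprints on the Egr2-201 CDS numbered 35, 38 and 3 without and 36 and 95 with KCl. These raw numbers overlapped because the RF libraries of untreated cultures 1 and 2 were the deepest, and the libraries of similar depth, untreated culture 3 and KCl culture 4, held 3 and 36 footprints. In RPKM, Egr2-201 occupancy was 3.30, 4.22 and 1.52 without and 18.5 and 25.3 with KCl. The groups did not overlap, which was true with KCl on the higher side for 25.6% of transcripts in RF. Mean occupancy rose from 3.01 ± 1.37 RPKM (SD, n = 3) to 21.9 ± 4.82 RPKM (SD, n = 2), which is 6.45-fold, or 2.69 on the log2 scale (standard error 0.26, edgeR adjusted p = 1.52e-14). This was the 23rd largest rise in RF among the same genes.

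Egr2-202 and Egr2-203 moved with Egr2-201, as transcripts that share a 3′UTR of 1203 nt and nearly all of their CDS. Their RNAseq log2 fold changes were 2.88 (standard error 0.25) for Egr2-202 and 2.90 (standard error 0.27) for Egr2-203, and in RF they were 2.77 and 2.78 (standard error 0.28 for each). An exact permutation of 3 cultures against 2 has 10 splits and reached its smallest possible two-sided p of 0.1 for each Egr2 transcript in both assays, so that test could not pass 0.05.

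The TE of Egr2-201, taken in each culture as RF RPKM over RNAseq RPKM, was 2.11, 1.73 and 0.445 without and 0.907 and 1.51 with KCl. The groups overlapped, and the lowest value, in untreated culture 3, rests on 3 footprints. On the log2 scale TE differed by -0.30 (standard error 0.40, edgeR adjusted p = 0.834), with an approximate 95% interval from -1.09 to 0.49. For Egr2-202 and Egr2-203 the TE log2 fold changes were -0.20 (interval -1.02 to 0.63) and -0.18 (interval -1.04 to 0.68). All 3 intervals include 0. These values set RNAseq reads of all regions against footprints on the CDS. With RNAseq reads on the CDS alone, Egr2-201 rose by 3.31 on the log2 scale in RNAseq. Its TE then differed by -0.60 (standard error 0.52, edgeR adjusted p = 0.782).

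**Figure D1:**
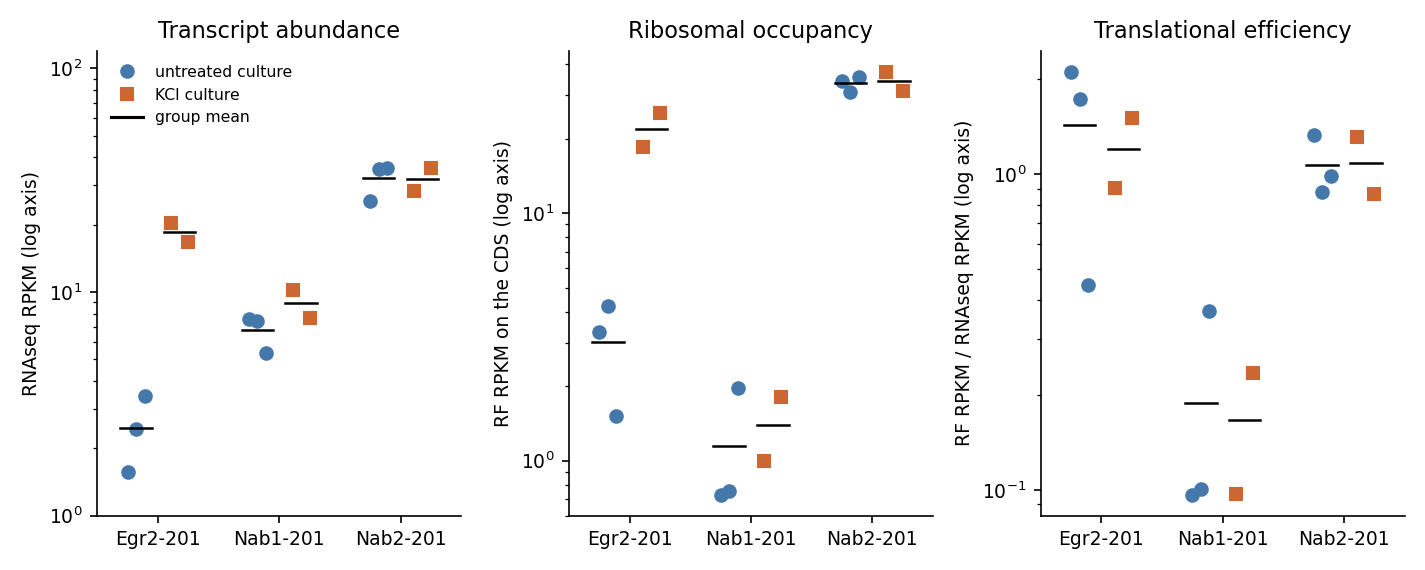
Abundance (RNAseq RPKM), ribosomal occupancy (RF RPKM on the CDS) and TE (their ratio) of Egr2-201, Nab1-201 and Nab2-201, each on a log axis, with 1 point per culture and a bar at the group mean. Egr2-201 in KCl cultures lies at 16.8 and 20.4 RNAseq RPKM against at most 3.42 without KCl, and the TE of each transcript overlaps between the groups.

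Nab2, the more abundant of both corepressors, showed total levels in KCl cultures that lay within or next to the untreated range. Nab2-201 had 228, 304 and 292 RNAseq reads in untreated and 224 and 316 in KCl cultures, or 25.6, 35.4 and 35.8 RPKM against 28.3 and 36.0 RPKM. The groups overlapped. The log2 fold change was -0.0006 (standard error 0.16, adjusted p = 0.998, edgeR), with an interval from -0.32 to 0.32.

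Nab2-201 had 405, 312 and 78 CDS footprints without and 81 and 131 with KCl, which corresponds to 34.2, 31.0 and 35.4 RPKM and to 37.2 and 31.2 RPKM. KCl culture 5 lay among the untreated cultures and KCl culture 4 just above them. The RF log2 fold change was 0.02 (standard error 0.16, adjusted p = 0.937, edgeR; interval -0.29 to 0.33). TE was 1.34, 0.876 and 0.988 without and 1.31 and 0.868 with KCl, and differed by -0.01 on the log2 scale (standard error 0.24, edgeR adjusted p = 0.993, interval -0.49 to 0.47).

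Nab2-202 gave log2 fold changes of 0.17 in RNAseq (standard error 0.17, adjusted p = 0.514, edgeR) and 0.17 in RF (standard error 0.16, adjusted p = 0.463, edgeR). Its mean abundance was 32.3 ± 6.15 RPKM (SD, n = 3) without and 36.2 ± 6.21 RPKM (SD, n = 2) with KCl. The Nab2 transcripts overlap up to 40 nt of the end of Stat6. Of their exons, 909 nt lie within the span of the antisense gene Gm16229, whose own exons were not compared. Both stretches lie outside exon 6. The sources used here do not say that the counting used strand. RNAseq reads of Nab2 and any reads of Gm16229 on those 909 nt therefore cannot be told apart.

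The coding reads of Nab2 differed between the groups in which exons they covered. Reads on stretches common to several transcripts were counted on each of them, so the CDS reads of Nab2-201 minus those of Nab2-202 are the reads on exon 6 and its junctions less the reads on the junction that leaves it out. In RNAseq this difference was 26, 39 and 22 reads in the untreated cultures, from 89, 120 and 95 CDS reads of Nab2-201. In the KCl cultures it was -1 and -3 reads, from 67 and 106 CDS reads. The untreated cultures thus had more reads on exon 6 than on the skipping junction, and in both KCl cultures reads on the skipping junction were at least as many as reads on exon 6.

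As a share of the CDS reads of Nab2-201, the RNAseq difference was 29.2%, 32.5% and 23.2% without and -1.49% and -2.83% with KCl. Footprints gave the same order, with 43, 37 and 8 more footprints on Nab2-201 in untreated cultures, or 10.6%, 11.9% and 10.3% of its CDS footprints. In the KCl cultures the differences were 0 and 3 footprints, or 0.0% and 2.29%. In each assay both KCl cultures lay below all untreated cultures. The untreated RF shares were near the 12.2% of the CDS that exon 6 occupies, and the untreated RNAseq shares were above it.

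The mean share fell by 30.5 percentage points in RNAseq, from 28.3% ± 4.74 (SD, n = 3) to -2.16% ± 0.946 (SD, n = 2), while it fell by 9.77 percentage points in RF, from 10.9% ± 0.841 to 1.15% ± 1.62. This comparison was chosen after its values were seen and is given without a test. Among 4858 pairs of transcripts of 1 gene with at least 50 CDS reads on average on the longer transcript in each assay, from 1198 genes, both KCl cultures lay below all untreated cultures in 11.5% of pairs in RNAseq and in 2.84% in both assays. A fall in RNAseq as large as that of Nab2 occurred in 11 pairs of 3 genes, which were Crem, Lrrfip1 and Nab2. Of these, Crem and Nab2 also had KCl below all untreated cultures in RF.

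These differences are net values of at most 43 reads in any library, and reads on exon 6 alone were not counted. A difference of 0, as for footprints in KCl culture 4 (81 on each transcript), means as many reads on exon 6 as on the junction that leaves it out. The level of Nab2-201 printed above therefore describes the gene and not the transcript with exon 6, since most of its reads also belong to Nab2-202.

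**Figure D2:**
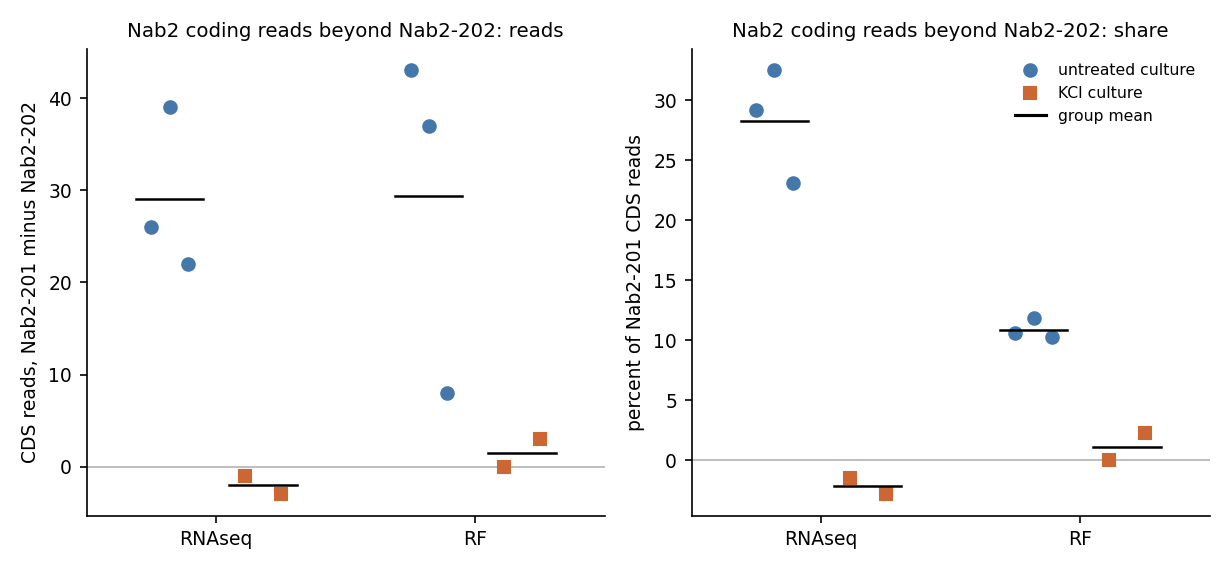
CDS reads of Nab2-201 minus those of Nab2-202 in each culture, as reads (left) and as a percentage of the CDS reads of Nab2-201 (right), with a bar at the group mean. Untreated cultures lie at 23.2% to 32.5% in RNAseq and 10.3% to 11.9% in RF, and the KCl cultures lie between -2.83% and 2.29%.

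Nab1, the second corepressor, was less abundant than Nab2 and had few footprints. Nab1-201 had 101, 96 and 65 RNAseq reads without and 121 and 101 with KCl, or 7.55, 7.44 and 5.32 RPKM and 10.2 and 7.66 RPKM. On TMM library sizes both KCl values were above all untreated values, the lower of them by little, as in 23.6% of transcripts tested. The raw reads overlapped between the groups. The log2 fold change was 0.39 (standard error 0.22, adjusted p = 0.201, edgeR; interval -0.03 to 0.82).

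On the Nab1-201 CDS there were 8, 7 and 4 footprints in untreated and 2 and 7 in KCl cultures. Occupancy was 0.730, 0.751 and 1.96 RPKM without and 0.993 and 1.80 RPKM with KCl, and the groups overlapped. The RF log2 fold change was 0.77 (standard error 0.71, adjusted p = 0.462, edgeR; interval -0.63 to 2.17). With so few footprints, the interval was wide and held both a fall and a rise. The TE log2 fold change was 0.50 (standard error 0.66, adjusted p = 0.830, edgeR).

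Over all regions, the order of levels per length differed between the groups in RNAseq, where Egr2-201 stood below Nab1-201 without and above it with KCl. The Nab1-201 reads lay almost wholly in the 3′UTR. On the CDS, Nab1-201 had 0, 2 and 0 RNAseq reads without and 0 and 1 with KCl. Egr2-201 had 4, 11 and 8 and then 65 and 83 on a CDS of similar length, above Nab1-201 in both groups. In untreated cultures RNAseq RPKM was highest for Nab2-201 (25.6 to 35.8), followed by Nab1-201 (5.32 to 7.55) and Egr2-201 (1.56 to 3.42), with no overlap between neighbours. In KCl cultures Nab2-201 (28.3 to 36.0) was followed by Egr2-201 (16.8 to 20.4) and then Nab1-201 (7.66 to 10.2). In RF, Egr2-201 and Nab1-201 overlapped without KCl (1.52 to 4.22 and 0.730 to 1.96 RPKM), both far below Nab2-201 (31.0 to 35.4 RPKM). With KCl, Egr2-201 reached 18.5 to 25.3 RPKM in RF and Nab1-201 was at 0.993 to 1.80 RPKM. The mean untreated abundance of Egr2-201 was above that of 22.6% of 17861 transcripts and its mean KCl abundance above that of 75.03%.

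RNAseq reads were spread over the transcript regions in different ways in the 3 genes. Egr2-201 was higher with KCl in each named region, with 5′UTR reads of 3, 2 and 6 against 15 and 20, CDS reads of 4, 11 and 8 against 65 and 83, and 3′UTR reads of 8, 11 and 18 against 100 and 66. The groups did not overlap in any of these regions, an order that 23.6% of transcripts had over all regions. The share by region was not computed. Reads per nt of the CDS were 0.719 of those of the 3′UTR, close to the median of 0.620 over 13599 transcripts.

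Nab1-201 held 434 of its 484 RNAseq reads in the 3′UTR and 3 in the CDS, although the CDS is 1458 nt and the 3′UTR 1927 nt long. Reads per nt of its CDS were 0.00914 of those of the 3′UTR, a ratio below which 3.94% of transcripts lay. The abundance of Nab1 above is therefore that of its 3′UTR, and so is the denominator of its TE. For Nab2-201 the ratio was 0.294, with 25.2% of transcripts below it.

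Footprints also differed in their place. On Nab1-201, 28 of 60 footprints lay in the 5′UTR and 28 in the CDS, with 12, 10 and 0 in the 5′UTR without and 2 and 4 with KCl. Its TE in the untreated cultures was 0.0967, 0.101 and 0.369, and the ratio of its mean RPKM in the untreated cultures, 0.170, was above that of only 0.689% of transcripts. Its 5′UTR of 489 nt was 81.6% G and C and held 4 upstream ATGs, where 81.5% of 13227 transcripts had fewer. Nab2-201, with 75% G and C in its 5′UTR, held 0 upstream ATGs.

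Egr2-201 had 5, 8 and 5 footprints in the 5′UTR without and 7 and 28 with KCl. Scaled to library depth these were 0.648, 1.22 and 3.42 RPM against 4.35 and 8.97 RPM. Both KCl cultures were above all untreated cultures, as on the CDS, where 25.6% of transcripts had this order. That share was not computed for the 5′UTR. Summed over cultures, footprints per nt of the Egr2-201 5′UTR were 1.03 times those of the CDS, a ratio above that of 79.4% of 11302 transcripts (median 0.479). By culture the ratio was 0.572, 0.843 and 6.68 without and 0.779 and 1.18 with KCl, and the groups overlapped. Its 5′UTR, 46.6% G and C, held 1 upstream ATG.

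**Figure D3:**
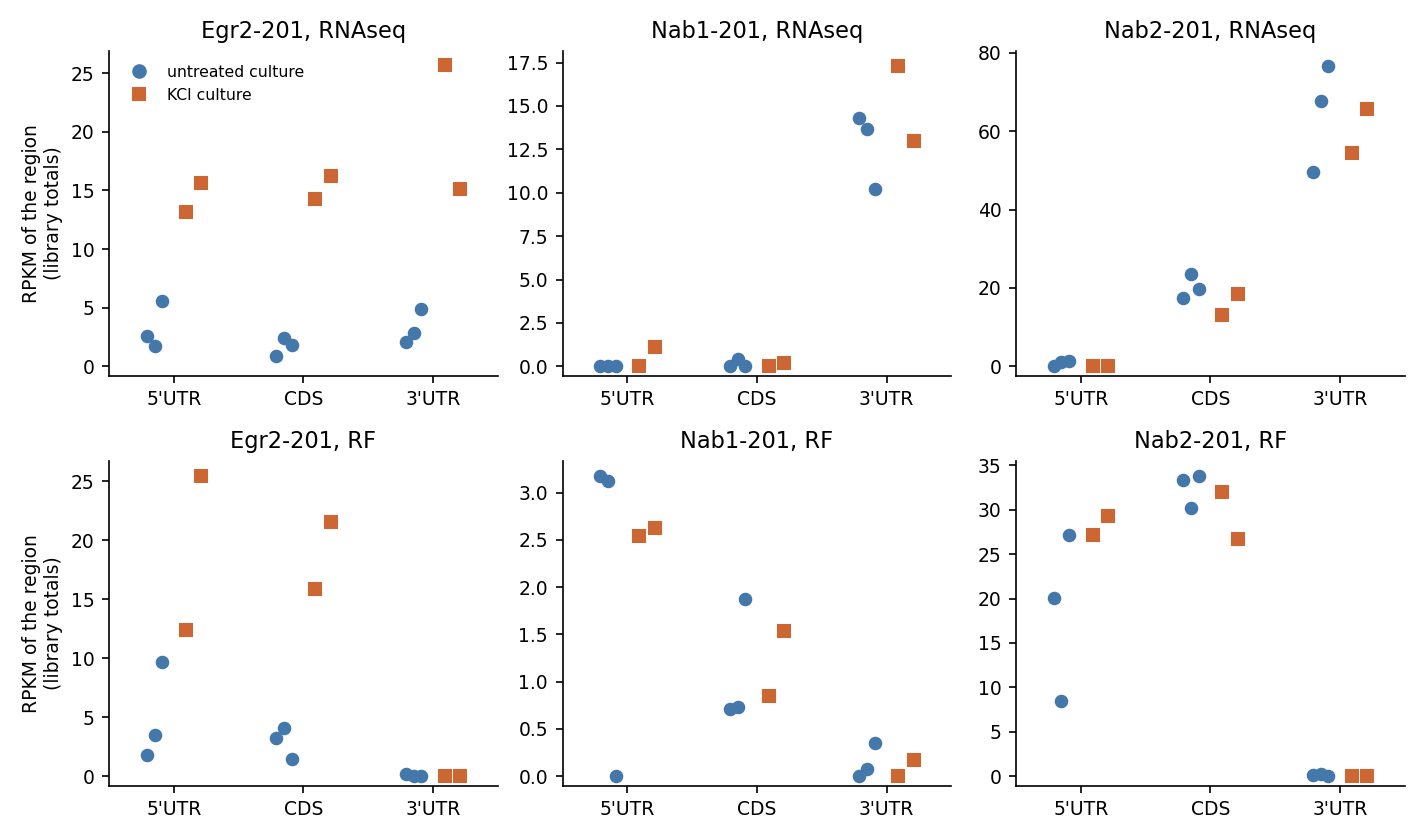
Reads per kb of region, scaled to library depth (RPKM), on the 5′UTR, CDS and 3′UTR of Egr2-201, Nab1-201 and Nab2-201 in RNAseq (top) and RF (bottom), with 1 point per culture and a separate linear axis per panel. Nab1-201 RNAseq reads stand almost wholly in the 3′UTR (434 of 484), and Egr2-201 is higher with KCl in all 3 regions of RNAseq.

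Several genes that act upstream of EGR transcription rose with Egr2. Of 10 listed activators, 9 were tested by their leading transcript, and 4 rose and 0 fell in RNAseq, where 12.2% of 10675 genes rose and 10.8% fell. In RF 4 rose and 0 fell, where 16.0% of genes rose and 13.9% fell. The median log2 fold change of the list was 0.29 in RNAseq and 0.10 in RF, beside -0.03 and -0.01 over all genes. Srf, which encodes the factor that binds CArG boxes, rose in RNAseq from 40.8 ± 5.06 to 210 ± 6.70 normalized CPM (log2 fold change 2.36, standard error 0.15, adjusted p = 3.82e-24, edgeR). Its RF rose less, by 0.83 on the log2 scale (adjusted p = 0.00497, edgeR), and its TE fell by 1.59 (adjusted p = 1.02e-05, edgeR). Mef2d (1.02), Mef2c (0.93) and Mef2a (0.57), MADS-box factors regulated by calcium signalling, also rose in RNAseq, and all 3 rose in RF. The other 5 tested activators, among them the Elk factors, passed no test.

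The NuRD complex, the partner through which NAB proteins repress, was called about as often as genes in general. Of 13 listed subunits 9 were tested, of which 1 rose and 0 fell in RNAseq, and 2 rose and 1 fell in RF, with median log2 fold changes of 0.05 and 0.10, against the shares over all genes given above. Gatad2a rose in both assays (log2 fold change 0.86 in RNAseq and 0.61 in RF). The remodelling ATPase Chd4, to which NAB2 binds, rose by 0.26 in RF (adjusted p = 0.0177, edgeR) with a log2 fold change of 0.15 in RNAseq (adjusted p = 0.492, edgeR). Mta1 fell by 1.12 in RF and by 0.86 in TE (adjusted p = 0.0379, edgeR).

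Genes reported as EGR targets showed calls near the background of all genes. Of 14 listed genes 11 were tested, with 0 higher and 1 lower in RNAseq, 0 higher and 1 lower in RF, and 0 called in TE by edgeR. Their median log2 fold change was 0.05 in RNAseq and 0.05 in RF. Over all genes, 12.2% were higher and 10.8% lower in RNAseq, 16.0% and 13.9% in RF, and 0.656% and 1.73% in TE. Lists this short cannot be told apart from these shares, which also stand beside the lists that follow. The adhesion molecule gene Icam1 fell by 0.98 in RNAseq and by 0.85 in RF. Arc had an RNAseq log2 fold change of 1.01 that missed the threshold (adjusted p = 0.0522, edgeR). Of the EGR2 targets of peripheral myelin, 1 of 4 rose and 0 fell in RNAseq and 1 rose and 0 fell in RF, with medians of 0.04 and 0.05. The Schwann cell gene Prx rose by 1.29 in RNAseq from 2.98 to 7.40 normalized CPM, with an RF log2 fold change of -0.90 (adjusted p = 0.449, edgeR). Mag rose by 0.36 in RF, and Pmp22 and Mbp passed no test. Among the other zinc fingers that read GC boxes, Sp4 rose by 0.63 in RNAseq and Sp3 passed no test.

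**Figure D4:**
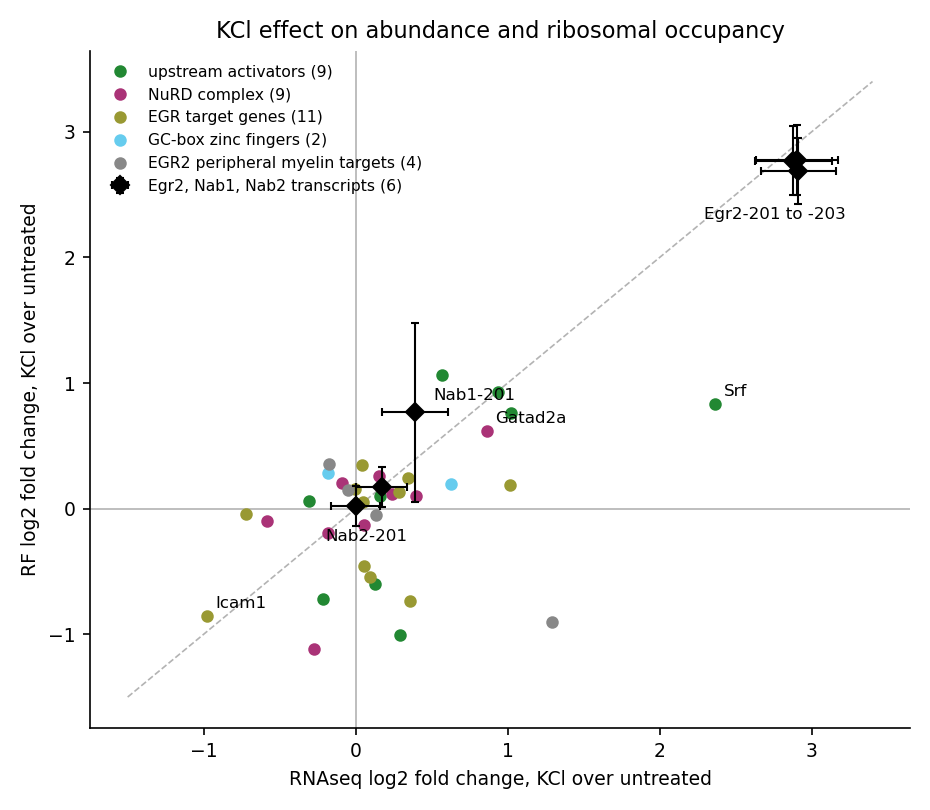
Log2 fold change of KCl over untreated cultures in RNAseq (x) and RF (y) for the 6 member transcripts (black, with bars of 1 standard error) and for the tested genes of the pathway lists (1 transcript each), with a dashed line where both are equal. The Egr2 transcripts stand near the line at 2.88 to 2.91 in RNAseq and 2.69 to 2.78 in RF, and Srf stands below it.

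Profiles most like those of the members were sought by Pearson's r over the 10 libraries on log2 normalized CPM centred within each assay, among 8957 genes with at least 10 reads per library on average in both assays. For Egr2-201 these were Amot (r = 0.997), Eya1 (r = 0.986) and Rgs2 (r = 0.984). Their RNAseq log2 fold changes of 0.57, 0.92 and 1.53 were smaller than that of Egr2. For Nab2-201 they were Frmd8 (r = 0.926), Rab1b (r = 0.922) and Ptpa (r = 0.893), and for Nab1-201 Tprgl (r = 0.972), Tacc1 (r = 0.899) and Trank1 (r = 0.893). The libraries share treatment and depth, so these values describe likeness and carry no test.

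Markers of the cell types in the culture were set beside these results. The summed RNAseq level of 5 astrocyte markers was 7195 to 8251 normalized CPM in untreated and 6415 to 6700 in KCl cultures. That of 3 measured fibroblast or meningeal markers was 419 to 500 and 362 to 410. Each sum had KCl below all untreated cultures, an order whose share over all transcripts was not computed. Gfap made up 4824 of the mean untreated astrocyte sum of 7785, and Col1a1 331 of 457 in the other. Taken singly, Aqp4, Slc1a3, Col1a1 and Lum had this order, while Gfap, Aldh1l1, Gja1 and Dcn overlapped between the groups. Summed markers of neurons (6), microglia (5), the oligodendrocyte lineage (5) and endothelium (4) overlapped between the groups. Of the tested markers, 1 of 6 neuron markers rose in RNAseq. There 1 of 5 astrocyte, 1 of 5 microglia, 1 of 5 oligodendrocyte lineage and 1 of 3 fibroblast markers fell, while 0 of 3 endothelial markers were called in edgeR. Beside these, 12.2% of all genes were higher and 10.8% lower in RNAseq. In RF 2 neuron, 4 astrocyte, 2 microglia and 1 fibroblast markers rose and 1 microglia marker fell, beside 16.0% of all genes higher and 13.9% lower in RF. In TE the astrocyte markers Aqp4 (0.88 on the log2 scale) and Slc1a3 (0.65) rose and the fibroblast marker Col1a1 fell by 1.04. Over all genes 0.656% were higher and 1.73% lower in TE. The part of these shifts in the member results was not tested. In bulk libraries fewer cells of a type and less RNA per cell cannot be told apart, and which cells of the culture carried Egr2, Nab1 or Nab2 was not tested.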

How the data were processed

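Members and gene lists were chosen with earlier results of these data known, and some listed genes are not reported here. The authors trimmed reads (Trimmomatic 0.32), removed rRNA reads (STAR 2.3.1z8), aligned the rest with bowtie2 2.2.2 to an mm10 transcriptome of Ensembl without degenerate sequences, kept multi-mapped reads, and deposited read counts per transcript region made with BEDTools 2.20.1, without normalization. Their methods state that KCl replicate 3 was removed for low library size. Regions carry a letter, and 1 of them is unnamed. Gene names, coordinates and region lengths came from GENCODE M21 of GRCm38 (22172 of 22534 transcripts matched), so region lengths may differ from those the authors counted on.

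RNAseq counts of all regions and RF counts of the CDS were compared by edgeR 4.0.16 (quasi-likelihood test, R 4.3.3, robust dispersions, TMM within assay) on 18284 transcripts with at least 10 reads summed over the 5 libraries of each assay, with Benjamini-Hochberg adjustment over all of them. For TE, the assay-by-treatment interaction was tested in all 10 libraries, blocked by culture. Standard errors are the absolute log2 fold change over the square root of F, and intervals are 1.96 times that, both approximations. RPKM used TMM library sizes. When tested on simulated data with 200 of 18284 transcripts changed by 1.5 on the log2 scale, these fits recovered 77.5% in RNAseq, 82.5% in RF and 63.5% in TE, and 0.641%, 4.62% and 8.63% of their calls were false. The simulation used trended dispersions, without spread around the trend or a culture effect, and transcripts of all levels. Its rates need not hold for these cultures or for members with few reads. No 2 libraries of 1 assay and treatment agreed in more than 3.27% of their counts.

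The pairing of RNAseq and RF libraries comes from the shared lysate. Deviations of same-numbered libraries from their group means had correlations of -0.160, -0.124 and 0.0911 in the untreated cultures and 0.0305 in the KCl cultures (3082 genes).

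The text names the members, the 3 genes with the most similar profile to each measured gene, and up to 4 genes of each list called in any test by the largest change. Arc, Crem, Lrrfip1 and the genes of a list said to have passed no test were named after their values were seen, and so was the Nab2 exon comparison chosen. Alternatives were DESeq2 1.42.0, other scalings, filters and read regions, sums by gene, exact permutation, 1 transcript per gene, no block and each culture left out. Python 3.11.15, pandas 2.3.3, numpy 2.4.6 and scipy 1.17.1 were used. Protein sequences, and the removal of positions around start and stop codons that the authors applied for TE, were not used here.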

Additional observations from a re-analysis of the deposited data

Results flagged for a closer look

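RNAseq reads on the unnamed region, which entered no comparison by region, were higher with KCl on Nab2. Nab2-201 and Nab2-202 share these reads, which came to 5.21, 5.58 and 6.22 RPM (scaled to all reads of the library) in untreated cultures 1, 2 and 3 and to 7.41 and 8.26 in KCl cultures 4 and 5, with means of 5.67 and 7.84. Both KCl cultures lay above all untreated cultures, as in 1061 of 8176 transcripts (13%) with at least 10 RNAseq reads there. They rest on 17 to 30 reads per library and were not tested.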

How the results depend on the processing

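The RNAseq log2 fold change of Egr2-201 lay between 2.66 and 3.31 over 16 alternatives and that in RF between 2.42 and 2.97 over 15, and both passed 0.05 in all of them but the exact permutation, where each was 2.97 (p = 0.1, the smallest it can give). No alternative called a Nab transcript or the TE of a member. DESeq2 gave no adjusted p for Nab1-201 in RF, or for the TE of Nab1-201 and of the Egr2 transcripts. The Nab2 exon 6 share differed by between -33.0 and -28.3 percentage points in RNAseq and between -10.9 and -8.62 in RF with 1 culture left out, an alternative chosen after seeing the data, as was 1 transcript per gene.

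Signs of changes near 0 turned. For Nab2-201 in RNAseq they were 0.02 with TMM over all 10 libraries, 0.09 summed by gene, 0.01 with 1 transcript per gene and 0.00 in the exact permutation, and in RF -0.15 with library totals and -0.06 with an RPKM of at least 10. The TE of Nab2-201 was 0.001 in DESeq2, 0.19 with RNAseq reads on the CDS and 0.02 in the permutation. Nab2-202 gave -0.0036 in RF with library totals and 0.00 for TE in the permutation. Nab1-201 gave -0.29 in RNAseq on CDS reads (3 reads in all) and -0.02 for TE in the permutation. The permutation gave TE values of 0.04 for Egr2-202 and 0.03 for Egr2-203. The cause was not tested.

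With 1 culture left out, where a lone KCl culture is assumed to vary like the others, TE ranged from -0.70 to 0.04 for Egr2-201, -0.60 to 0.14 for Egr2-202, -0.67 to 0.23 for Egr2-203, -0.35 to 0.91 for Nab1-201, -0.28 to 0.31 for Nab2-201 and -0.33 to 0.31 for Nab2-202. RNAseq ranged from -0.18 to 0.16 for Nab2-201 and -0.02 to 0.33 for Nab2-202, and RF from -0.09 to 0.16 for Nab2-201.

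The number of transcripts called was 4021 in RNAseq, and 2447 with an RPKM of at least 10, 2162 summed by gene, 2029 on CDS reads and 2470 with 1 transcript per gene. In RF it was 5394, and 3227 in DESeq2, 3001, 2810 and 3184 under the RPKM filter, sums by gene and 1 transcript per gene. In TE it was 432, and 169 in DESeq2, 163 summed by gene, 240 on CDS reads and 274 with 1 transcript per gene. Leaving out 1 culture gave 2368 to 4441 in RNAseq, 2483 to 5576 in RF and 51 to 568 in TE, with the lowest RF and TE counts without KCl culture 5 and the lowest RNAseq count without KCl culture 4. The RPKM filter and edgeR's filterByExpr dropped Nab1-201. Without the replicate block for culture, TE had 392 calls, with 0.02 for Nab2-201 and 0.0025 for Nab2-202, and the block changed no call of a member. Few footprints limit Nab1 and the Egr2 level of untreated culture 3.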

Other observations

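The first exon of Egr2-203 lies within the intron of Egr2-201, and its 5′UTR of 226 nt had 0 reads in all 5 RNAseq and all 5 RF libraries, which allows up to 3 reads in each. The counts of Egr2-203 therefore come from the last exon, which all 3 Egr2 transcripts share.

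CDS reads of Egr2-201 in excess of Egr2-202, which begins downstream, made up 0.0%, 0.0% and 12.5% of its RNAseq CDS reads without and 15.4% and 20.5% with KCl. The untreated values rest on 4, 11 and 8 CDS reads, so that no difference between the groups can be read from them. In RF the shares were 17.1%, 15.8% and 0.0% without and 8.33% and 11.6% with KCl, and the groups overlapped.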
